A study of Rattus norvegicus with 3 samples.

Results

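The cathepsins and legumain are the peptidases that break down protein inside lysosomes. The genes described here are Ctsa, Ctsb, Ctsc, Ctsd, Ctsh, Ctsk, Ctsl, Ctss, Ctsz and Lgmn. They were taken as every probe set annotated to exactly 1 gene symbol that was 1 of these names, which gave 13 of 31042 non-control probe sets and 10 of 14217 named genes. Of these, 7 had 1 probe set, and Ctsc, Ctsl and Lgmn had 2 each. The study set out to describe the transcripts of the rat renal proximal tubule, and measured 3 tubule preparations on 1 array each. All 3 came from male Sprague-Dawley rats of 7 to 8 weeks, with no treated, mutant or control group beside them. Each rat had 250 units of heparin 30 min before death, its kidneys were perfused with saline and then collagenase at 2 mg/ml, and tubules were separated from the 20 min cortical digest on 42.5% Percoll. The labels do not say which animals went into which preparation, so an SD (n = 3) measures the spread between arrays and may be partly technical.

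The proximal tubule takes filtered proteins and peptides out of the urine through the receptors megalin and cubilin and passes them to lysosomes, where cathepsins cut them to amino acids. Most cathepsins are cysteine peptidases related to papain. Cathepsin D is an aspartic peptidase, cathepsin A a serine carboxypeptidase, and legumain a cysteine peptidase of another family that cuts after asparagine. They are made as inactive proenzymes, and in mouse kidney legumain trims several cathepsins into their mature chains. Cathepsins S and K are best known from other cells, the first from antigen-presenting cells and the second from osteoclasts.

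Arrays 1, 2 and 3 had median signals of 37.1, 37.4 and 34.9 over the non-control probe sets, of which 6.12%, 5.31% and 5.52% exceeded 1000. Of all named genes 61% lay above the median of every array, so this line does not by itself identify a tissue. Of the proximal tubule markers, 10 of 10, among them Lrp2, Cubn, Slc34a1 and Slc5a2, lay above the median of every array. Of other cell types, 2 of 13 macrophage markers (Csf1r and Lyz2), 0 of 6 measured lymphocyte markers, 2 of 8 fibroblast markers (Pdgfra and Col3a1), 4 of 4 thick limb and distal tubule markers, 2 of 4 collecting duct markers and 3 of 3 measured endothelial markers did so. Probe sets differ in affinity as well as in transcript level, so members are not ranked against each other by signal, and the percentiles and lines below describe probe-set signals of the group and not amounts of RNA. No detection calls were used, so a low signal is a value and not an absence.

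Of the 10 genes, 8 lay above the median of every array, against 61% of all named genes. Of these, 7, namely Ctsa, Ctsb, Ctsc, Ctsd, Ctsh, Ctsl and Lgmn, were also above the 75th percentile on all 3 arrays, against 36.4% of all named genes. The same 7 had a mean signal over 1000, as did 9.65% of all named genes. Among all named genes the 10 had a median percentile of 97.8, 97.8 and 97.9 on arrays 1, 2 and 3. The other 3 genes, Ctss, Ctsz and Ctsk, lay below the 75th percentile of each array.

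Cathepsin L, an endopeptidase that cuts within protein chains, gave 11896, 10016 and 9955 on arrays 1, 2 and 3 with its brighter probe set (10622 ± 1103, SD, n = 3). Its other probe set gave 4777, 4726 and 4641. The probe sets differed by 2.49-fold, 2.12-fold and 2.14-fold on the 3 arrays, and both lay far above the array median. Cathepsin B, which acts as an endopeptidase and also removes dipeptides from the carboxyl end, gave 8758, 8002 and 8567 (8442 ± 393, SD, n = 3). Its highest array exceeded its lowest by 1.09-fold.

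Cathepsin H, an aminopeptidase, gave 9781, 8632 and 9888 on the 3 arrays (9434 ± 696, SD, n = 3). Arrays 1 and 3 lay close together and array 2 was 1.15-fold below the highest. Cathepsin C, or dipeptidyl peptidase I, removes dipeptides from the amino end and is known for activating the serine peptidases of white blood cell granules. Its brighter probe set gave 2289, 2048 and 2011 (2116 ± 151, SD, n = 3), and its other probe set 2046, 1405 and 1687. The probe sets lay 1.12-fold, 1.46-fold and 1.19-fold apart and disagreed on the lowest linear signal, which was on array 3 for the brighter and on array 2 for the other.

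Cathepsin Z, also called cathepsin X, is a carboxypeptidase of lysosomes. It had 1 probe set, with signals of 28.3, 38.2 and 46.3 (37.6 ± 9.02, SD, n = 3). These values straddled the array median, below it on array 1 and above it on arrays 2 and 3. Its highest array exceeded its lowest by 1.64-fold.

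Cathepsin D, the main aspartic peptidase of lysosomes, gave 2481, 1752 and 2268 (2167 ± 375, SD, n = 3). Read by the brightest probe set of each, it varied most among the 7 genes over 1000, with array 2 lying 1.42-fold below array 1. Cathepsin A, which besides its peptidase activity holds the lysosomal galactosidase and sialidase in a protective complex, gave 10717, 9676 and 10427 (10273 ± 537, SD, n = 3). The genes of its partners, chosen here after their values were seen, were above the median of every array, as were 61% of all named genes. Glb1 gave 4904, 3908 and 4522, and Neu1 gave 655, 526 and 632.

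Legumain gave 8125, 7541 and 7680.4 with its brighter probe set (7782 ± 305, SD, n = 3), a coefficient of variation of 3.92%, the smallest of the 10 genes when each is read by its brightest probe set. The other probe set annotated to Lgmn gave 32.6, 46.8 and 15.9, and was above the array median on array 2 alone. The ratio between them was 249, 161 and 483, so the value of Lgmn rests on which probe set is read. The sources used here do not say which part of the transcript each one covers.

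Cathepsin S, the peptidase that removes the last part of the invariant chain from class II molecules in antigen-presenting cells, gave 107, 56.3 and 88.3 (83.8 ± 25.5, SD, n = 3). It was above the median of each array and below the 75th percentile of each. Cathepsin K, the collagen-cutting peptidase of osteoclasts, gave 4.42, 2.95 and 8.72 and lay below the array median on all 3 arrays. Another osteoclast gene, Acp5 of tartrate-resistant acid phosphatase, gave 989, 891 and 1062, while Calcr, the calcitonin receptor gene, gave 22.6, 17.0 and 15.04. Of 4 measured osteoclast markers, Acp5 alone was above the median of every array. Ctsk and Ctss are near neighbours on chromosome 2, where LOC134485802 is the only protein-coding gene annotated between them.

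**Figure D1:**
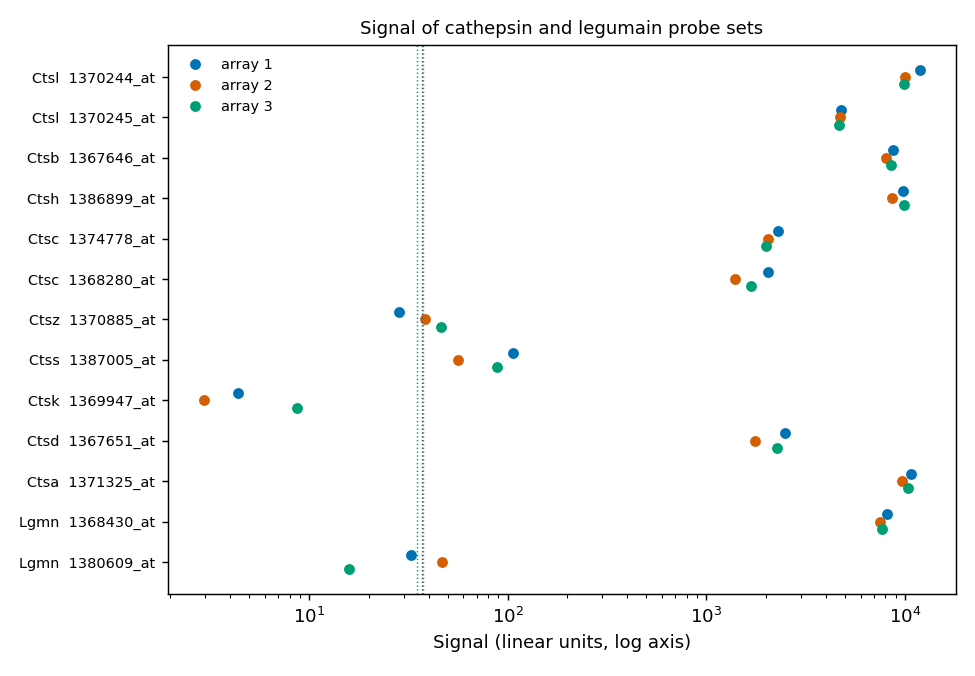
Signal of each of the 13 probe sets (rows, named by gene and probe set) on the 3 arrays, on a log axis in linear signal units, with dotted lines at each array's median. The signals of 9 probe sets lie over 1000 on every array, and those of Ctsz, Ctss, Ctsk and 1 of the 2 for Lgmn lie at or below 107.

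Promoter windows were read for 9 members from a RefSeq table of the GRCr8 assembly, each running from 250 bases before a transcript start to 50 after it, and Ctsb had no entry. Those of 4 members are printed, Ctsd as the member with CACGTG, Ctsl as a bright member with 3 GC boxes, and Ctss and Ctsk as the members without a GC box. They run 5′ to 3′ in the direction of the gene. Capitals mark the E-box CACGTG in the window of Ctsd, the GC box GGGCGG in that of Ctsl, the letters TATAAA in that of Ctss and the letters CCAAT in that of Ctsk, on either strand, so a match on the opposite strand shows as its reverse complement.
Ctsd promoter window, chr1:206968772-206969071, minus strand: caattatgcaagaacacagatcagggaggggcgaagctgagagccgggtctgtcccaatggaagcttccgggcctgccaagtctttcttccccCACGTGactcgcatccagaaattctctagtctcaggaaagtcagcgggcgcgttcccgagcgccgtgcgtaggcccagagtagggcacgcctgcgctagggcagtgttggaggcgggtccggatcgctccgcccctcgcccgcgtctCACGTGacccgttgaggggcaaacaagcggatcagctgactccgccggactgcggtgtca
Ctsl promoter window, chr17:769854-770153, plus strand: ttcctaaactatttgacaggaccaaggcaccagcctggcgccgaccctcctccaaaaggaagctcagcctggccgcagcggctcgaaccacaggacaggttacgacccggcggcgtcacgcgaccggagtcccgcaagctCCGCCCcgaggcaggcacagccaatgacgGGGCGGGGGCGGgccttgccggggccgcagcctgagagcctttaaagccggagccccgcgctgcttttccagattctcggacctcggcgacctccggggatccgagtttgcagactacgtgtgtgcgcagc
Ctss promoter window, chr2:185775146-185775445, plus strand: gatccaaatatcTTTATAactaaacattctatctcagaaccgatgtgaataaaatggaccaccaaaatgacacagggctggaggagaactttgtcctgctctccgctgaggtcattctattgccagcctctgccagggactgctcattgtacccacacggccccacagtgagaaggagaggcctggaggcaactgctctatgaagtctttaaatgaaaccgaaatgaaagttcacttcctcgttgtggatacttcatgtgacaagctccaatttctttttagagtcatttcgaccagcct
Ctsk promoter window, chr2:185747298-185747597, plus strand: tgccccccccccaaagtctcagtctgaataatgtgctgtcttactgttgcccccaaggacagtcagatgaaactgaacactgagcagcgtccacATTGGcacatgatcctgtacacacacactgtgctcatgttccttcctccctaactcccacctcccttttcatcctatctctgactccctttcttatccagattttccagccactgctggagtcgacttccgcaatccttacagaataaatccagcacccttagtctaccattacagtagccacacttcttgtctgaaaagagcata

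CACGTG, the core of the element bound by the lysosomal regulator TFEB and also by many other factors, was found in 1 of 9 members, against 6.42% of all 33469 windows. CACGTG was in 9.92% of windows of named genes above the median of every array and in 6.45% of those below it on all 3. The member with it was Ctsd, whose window held CACGTG at positions -157 and -10 relative to the start. The GC box GGGCGG was found in 7 of 9 members, against 33.1% of all windows, 62.8% of windows of named genes above the median of every array and 42.1% of those below it on all 3. Ctss and Ctsk were the members without it, and Ctsz, which had a low signal, held 3 matches, as did Ctsl. TATAAA was in 1 of 9 members (Ctss, at position -238 on the opposite strand) against 14.2% of all windows, and CCAAT in 6 of 9 against 37.5%. In windows of genes above and below the median on all 3 arrays, TATAAA was in 6.68% and 12.1%, and CCAAT in 38.2% and 34.3%. In Ctsl, 2 of the GC boxes stand directly side by side, and matches of different motifs did not overlap in the members' windows. The absence of a match says only that these letters are not in the window.

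The spread between preparations was measured on log2(signal + 16), centred on the median of each array. On this scale none of the 10 genes had arrays 2-fold or more apart, a range reached by 4.46% of all named genes, by 1.49% of those above the median level of genes and by 0.875% of those with a mean over 1000. The SD over arrays on this log2 scale had a median of 0.13 over the 10 members and of 0.10 over the 7 with a mean over 1000, beside 0.13 for the 1372 named genes over 1000. It ran from 0.06 for Lgmn to 0.40 for Ctss. The added 16 compresses low signals, and the linear signals of Ctsk lay 2.95-fold apart between arrays 3 and 2. Among the 7, each read by its brightest probe set, Ctsd stood apart at 0.27, and the others lay at or below 0.14. The other probe set of Ctsc, not used for these values, also had an SD of 0.27. Without array 2 the median over the 10 members was 0.07.

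**Figure D2:**
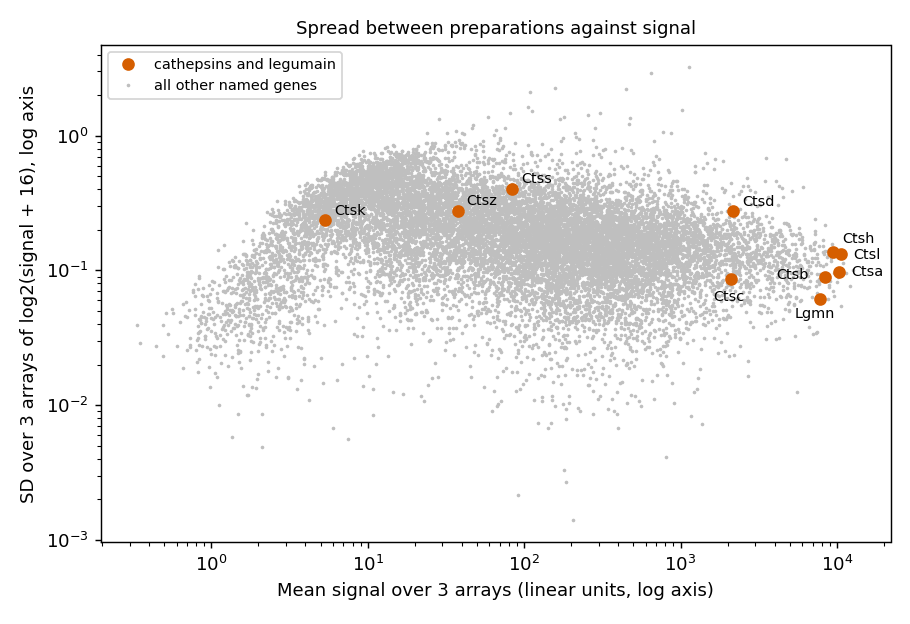
SD over the 3 arrays of the centred log2(signal + 16) against mean signal, both on log axes, for the 10 members (orange, named) and all other named genes (grey). Each gene is read by its brightest probe set. Ctss at an SD of 0.40, Ctsz at 0.28, Ctsd at 0.27 and Ctsk at 0.24 lie above the 6 remaining genes. Those 6, all over 1000, run from 0.06 to 0.14.

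On the same scale, the 7 genes over 1000 were all lowest on array 2, as were 78.4% of all named genes over 1000. On arrays 1, 2 and 3 their median deviation from their own means was 0.04, -0.11 and 0.07, against 0.08, -0.11 and 0.03 for all named genes over 1000. On this scale 4 were highest on array 1 (60.2% of named genes over 1000), 0 on array 2 (3.64%) and 3 on array 3 (36.2%). Array 2 also had the smallest share of probe sets over 1000, as given above, and the part of overall scale in these values was tested only by rescaling. After quantile normalization, 2 of the 7 were lowest on array 2, as were 30.5% of named genes over 1000. Without centring, 5 of the 7 were lowest there, as were 66.7% of named genes over 1000. The counts under these other scalings were added after seeing the data. The low values on array 2 were thus shared with most other bright genes and their number changed with the scaling.

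Counting all 10 genes, 9 were lowest on array 2, against 46.4% of all named genes, and Ctsz was the exception. Of the 9, 7 were the genes over 1000, for which the share was 78.4%. Without centring 7 of the 10 were lowest there and after quantile normalization 4. The share over all named genes was not computed for those scalings. The gene that ranged most among the members above the median level of genes was Ctsd. Of the 7107 other named genes above that level, the 3 nearest to its deviations over the 3 arrays were Adipor2, Adap2 and Them4, at Euclidean distances of 0.0056, 0.012 and 0.013 log2 units, beside a median distance of 0.33. Adipor2, the gene of an adiponectin receptor, gave 219, 151 and 201. The smallest of 7107 distances over 3 arrays are bound to lie far below the median distance, so such nearness is a description only.

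Ctss fell furthest below its own mean on array 2, with deviations of 0.31, -0.46 and 0.14 on arrays 1, 2 and 3. Genes of class II antigen presentation, the process cathepsin S serves, had their own low on the same array. Of 8 such genes, 7 were lowest on array 2, against 46.4% of all named genes and 78.4% of those with a mean over 1000. The median of their mean signals was 780, and the count was not repeated after quantile normalization. Of the 8, 5 had a mean above the median level of genes and ranged by 2-fold or more, against 1.49% of named genes above that level. Cd74, the invariant chain that cathepsin S cuts, gave 4952, 3011 and 4827. Of the class II chains, RT1-Da gave 2199, 1069 and 2369 and RT1-Ba gave 889, 333 and 1376. RT1-Db1 gave 581, 253 and 647, RT1-DMb gave 755, 376 and 948, and RT1-Bb gave 1169, 20.7 and 2230.3. The exception was Ciita, the class II regulator, which gave 58.3, 57.8 and 40.9 and was lowest on array 3.

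Ctss was highest on array 1, as was Ciita on the centred scale, whereas the median deviation of the class II list was 0.23, -0.77 and 0.51 on the 3 arrays. The summed signal of the 13 macrophage markers was 896, 826 and 1052, and without Lyz2, which gave 623, 580.2 and 732, it was 274, 245 and 320.1. None was listed at 0. On the centred scale 7 of the 13 were lowest on array 2, against 46.4% of all named genes. Among them was Csf1r, at 51.0, 39.8 and 58.4. Lowest on other arrays were Cd68 at 29.1, 11.4 and 5.27, Adgre1 at 17.2, 28.4 and 16.3 and Cd163 at 5.09, 6.26 and 10.1. In whole preparations like these, fewer cells of a type and less RNA per cell cannot be told apart, and the part of macrophages or dendritic cells in the Ctss values was not tested.

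**Figure D3:**
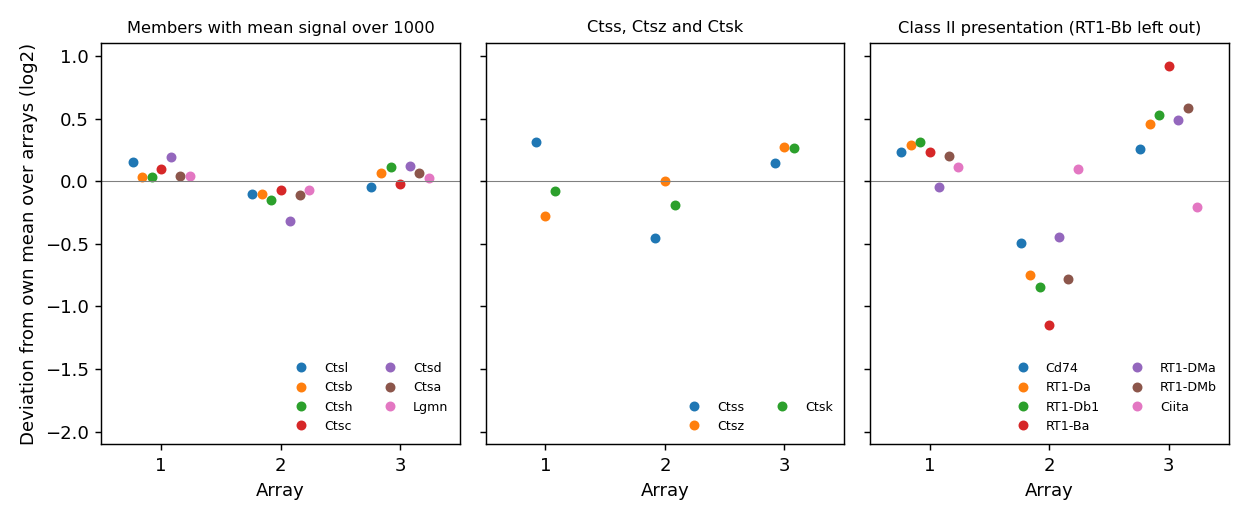
Deviation of each gene from its own mean over the 3 arrays, in log2 units of the centred signal, for the 7 members over 1000 (left), Ctss, Ctsz and Ctsk (middle) and class II presentation genes (right). Ctsd reaches -0.31 and Ctss -0.46 on array 2, where the class II genes other than Ciita are also at their lowest. RT1-Bb is left out because its -3.67 on array 2 would set the scale.

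In a list of cystatins and other peptidase inhibitors, 4 of 8 measured genes of 11 listed lay above the median of every array, against 61% of all named genes. They were Cst3, Cstb, Serpinb1a and Serpinb6a, of which the serpins are known as inhibitors of serine peptidases and not of the enzymes described here. Cystatin B, the inhibitor found inside cells, gave 3479, 2970.3 and 3172. Cystatin C, the secreted inhibitor that the proximal tubule itself takes up and degrades, gave 1554, 1258 and 1584. Cst6 of cystatin M, an inhibitor of legumain as well as of cathepsins, gave 11.3, 5.11 and 19.5, below the median of each array.

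The machinery that brings the enzymes and their substrates to lysosomes was above the median throughout. Of all named genes, 61% passed this line on every array. In the list of sorting and membrane proteins, 11 of 11 measured genes of 12 listed lay above the median of every array. M6pr and Igf2r, the mannose 6-phosphate receptors that carry new lysosomal enzymes, gave 2462, 1866 and 1814, and 5317, 5164 and 5791. Gnptab and Gnptg, subunits of the transferase that makes the mannose 6-phosphate tag, gave 223, 177 and 218, and 964, 713 and 793. Of the uptake receptors, 7 of 7 lay above it, including Lrp2 of megalin at 9079.8, 7948 and 8622, Cubn of cubilin at 5221, 4575 and 4982, the cubilin partner Amn at 4076, 3566 and 4237 and the adaptor Dab2 at 8169, 7389.7 and 7641.

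Of other lysosomal hydrolases, 11 of 11 measured genes of 15 listed lay above the median of every array, against 61% of all named genes. Their signals on single arrays ran from 211 to 4982. The 7 bright members were grouped by a mean over 1000, so they are not set against this range. The other members, Ctss, Ctsz and Ctsk, had lower means of 83.8, 37.6 and 5.36. Hexa of hexosaminidase gave 4982, 3796 and 4022 and Gla of alpha-galactosidase 312, 279 and 276. Of 8 regulators of lysosomal genes, 8 lay above it, and none ranged by 2-fold. Tfeb gave 206, 163 and 215, Tfe3 218, 228 and 225, Mitf 114, 116 and 127 and Tfec 528, 472 and 475. The median SD on the log2 scale was 0.16 for the sorting list, 0.15 for the uptake receptors, 0.17 for the hydrolases and 0.12 for the regulators.

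Cathepsins outside the 10 genes lay mostly below the array median. Ctsf, another papain-type peptidase, gave 382, 312 and 392 and lay above the median of every array. Ctso gave 44.9, 64.02 and 24.8 and passed it on arrays 1 and 2, and Ctse, an aspartic peptidase outside lysosomes, gave 17.7, 21.6 and 11.7. In the whole list of other cathepsins and close relatives, 4 of 12 measured genes of 15 listed lay above the median on all 3 arrays. The share over all named genes was 61%. The 4 were Ctsf, Tinag, Tpp1 and Napsa, and 6 of 12 lay below the median on every array.

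**Figure D4:**
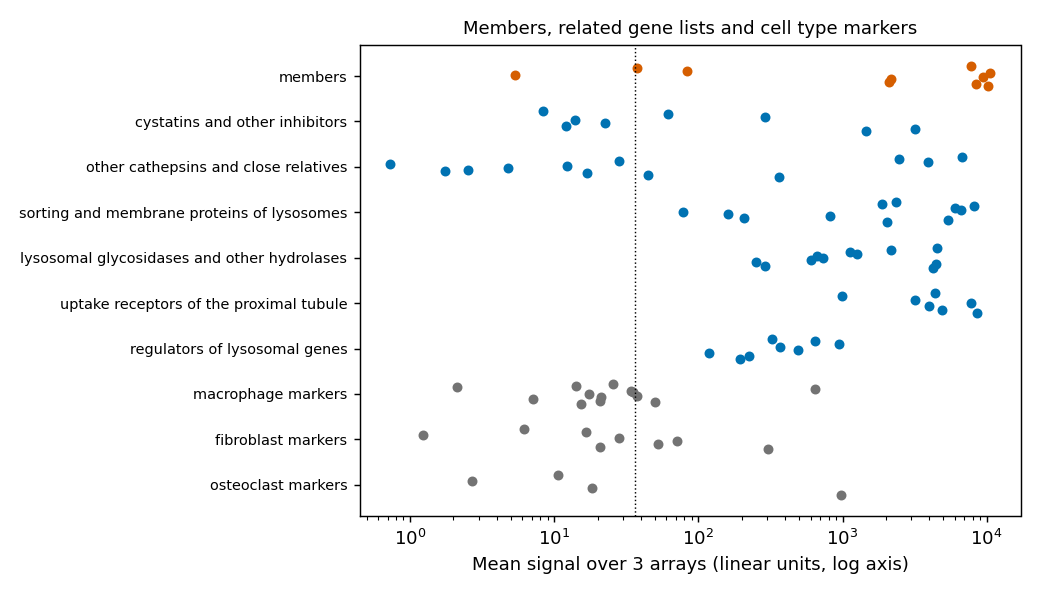
Mean signal over the 3 arrays, on a log axis in linear units, of each member (orange), of each gene in related lists (blue) and of markers of other cell types (grey), with a dotted line at 36.5, the mean of the array medians. Of the members, 8 of 10 lay above the median of every array, against 61% of all named genes. So did 2 of 13 macrophage, 2 of 8 fibroblast and 1 of 4 osteoclast markers. Thick limb, collecting duct and endothelial markers are not drawn.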

How the data were processed

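Biotin-labelled cRNA from total RNA was hybridised to Affymetrix rat arrays, per the labels' protocols. The authors deposited linear signal intensities of probe sets. Their summarisation and scaling are not given in the sources used here. The array medians differed slightly, and the values were used as deposited.

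Of 31099 probe sets, 57 controls were left out. The platform annotation named 1 gene for 20826 probe sets, and those with several (436) or no gene (9780) were not used. Of the first, 20758 matched the RefSeq table (GRCr8) by gene identifier, which changed 0 symbols. A gene took its probe set of highest mean signal, giving 14217 named genes.

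Spread was computed on log2(signal + 16) centred on each array's median over non-control probe sets (Python 3.11.15, numpy 2.4.6, pandas 2.3.3). A range of 1 log2 unit is 2-fold. Code was tested on simulated data. The median level of genes is the median over named genes of the mean signal, 96.6. With 1 group no difference was tested and no p-value is given. The number of arrays limits the precision.

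The members, lists, the line at 1000 and the alternatives were chosen with earlier results of these data known. The text names all members, the first 4 genes of each list, list genes ranging 2-fold, and the 3 genes nearest to the member above the median level that ranged most, though not every name allowed is printed. Genes named because a count was small, or named as chosen after their values were seen, lie outside this rule.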

Additional observations from a re-analysis of the deposited data

How the results depend on the processing

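Members above the median of every array numbered 8, against 61% of all named genes. With the line at the 75th percentile they numbered 7, against 36.4%. They numbered 9 with the line at the 25th, and 8 to 9 when 1 array was left out. The share over all named genes was not computed for those last settings. No member ranged by 2-fold except under a pseudocount of 1, where 1 did, namely Ctsk, and the share over all named genes was not computed. The median percentile, 97.7, was 97.4 with a gene's probe sets averaged and 97.8 with unsuffixed probe sets. Without the lowest 20% of named genes it was 99.6. Members among those genes were then left out too, so this median does not cover all 10. With 1 array left out, the median percentile was 97.7 to 97.8. The median SD, 0.13 log2 units, ran from 0.07 to 0.16 over those omissions and was 0.08 after quantile normalization. Of the 10 members, 5 were highest on array 1, 0 on array 2 and 5 on array 3. Without centring 3 were highest on array 3, and after quantile normalization 3 were highest on array 1 and 2 on array 2. For these counts the share over all named genes was not computed. Among named genes over 1000, on the centred scale, the shares were 60.2%, 3.64% and 36.2%. The members lowest on array 2 were 9 of 10, against 46.4% of all named genes, but 7 without centring and 4 after quantile normalization. Of the 7 over 1000 quantile normalization left 2, beside 30.5% of named genes over 1000, and the cause was not tested. The median deviation of members was 0.04, -0.11 and 0.09 on arrays 1, 2 and 3, and after quantile normalization -0.01, -0.01 and 0.06, so its sign on array 1 turned. Averaging probe sets gave a mean signal of 3907 for Lgmn, 7668 for Ctsl and 1914 for Ctsc. No paired analysis was possible because there was 1 group. Low values, such as those of Ctsz near the array median and of Ctsk below it, have no detection call behind them.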

Other observations

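Further genes from the list of other cathepsins and close relatives were chosen after their values were seen. Napsa of napsin A, an aspartic peptidase known from kidney and lung, gave 7231, 6091 and 6989 on arrays 1, 2 and 3. Tinag, a papain-like protein of tubular basement membranes without peptidase activity, gave 4476, 3762 and 3583, while its relative Tinagl1 gave 18.2, 24.4 and 41.8. Tpp1, a lysosomal tripeptidyl peptidase, gave 2714, 2337 and 2358. Ctsj, Ctsm, Ctsq and Ctsr, which in rodents are known from the placenta, lay below the median of every array, with Ctsq at 8.22, 26.4 and 2.31 and Ctsj at 2.92, 2.03 and 2.67. Ctsw, a cathepsin of killer lymphocytes, gave 1.93, 1.67 and 1.68.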
